A study of Homo sapiens with 6 samples.

Results

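The heat shock factor HSF1 and 9 chaperone genes (HSPA1A, HSPA1B, HSPA8, HSPH1, HSP90AA1, HSP90AB1, DNAJB1, HSPD1 and HSPE1) were examined in H9 cells treated with AZD4573. The genes were chosen by symbol as a functional group, with earlier results of these data known, and each symbol matched 1 of the 61541 Ensembl genes counted. All 10 passed the filter on low counts, which 17678 genes passed in total. H9 is an established human cutaneous T-cell lymphoma line, and AZD4573 is a selective inhibitor of CDK9, the kinase that phosphorylates RNA polymerase II and releases it into productive elongation. Bulk RNA-seq was performed on 3 libraries of cells given the vehicle DMSO and 3 libraries of cells given AZD4573 (50 nM) for 4 h. This time is the one in the labels, and the discussion of the study names a longer exposure. Both groups were of the same line, and the labels do not say whether the replicates were separate cultures. The p-values therefore measure the spread between these libraries, which may be technical, and a single line limits the groups as a model of T-cell lymphoma.

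Chaperones bind unfolded proteins and help them fold, and HSF1 is the transcription factor that raises many of them when unfolded protein accumulates. HSP70 proteins cycle on and off their clients with the help of J-domain proteins, which stimulate ATP hydrolysis, and of nucleotide exchange factors such as the HSP110 family. HSP90 matures kinases and receptors handed on by HSP70, and HSP60 with its lid HSP10 folds proteins inside mitochondria. The HSP70 gene is also a textbook case of a promoter where RNA polymerase II pauses just past the start site until CDK9 is recruited.

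Upon AZD4573 treatment, transcripts of the HSP70 genes HSPA1A, HSPA1B and HSPA8 and of their partners DNAJB1 and HSPH1 fell, while those of the most abundant HSP90 gene and of mitochondrial HSP60 had levels that overlapped between the groups. DNAJB1 fell most, 3.10-fold, followed by HSPA1B at 2.79-fold, HSPA1A at 2.23-fold, HSPA8 at 1.98-fold and HSPH1 at 1.56-fold. HSPE1, HSF1 and HSP90AA1 fell by less than 1.5-fold. With edgeR's quasi-likelihood test, 8 of the 10 genes were lower at an adjusted p under 0.05, beside 37.4% of all genes tested, and 2 were higher, beside 37.3% of all genes tested. With a fold change of at least 1.5 as well, 5 of the 10 were called lower, beside 23.7% of all genes. The libraries of the groups did not overlap for the same 8 lower genes, beside 42.9% of all genes tested that lay lower without overlap. The median log2 fold change was -0.49 over the 10 genes and 0.03 over all genes tested.

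Total counts ranged from 70367303 to 76571157 with DMSO and from 52101868 to 63795185 with AZD4573, and 23370 to 24829 genes were detected per library. Levels are given as CPM, in which each count is divided by its library's total and set to a common scale, whereas fold changes were computed after TMM scaling, which corrects for the composition of the libraries. The mitochondrially encoded mRNAs, which RNA polymerase II does not transcribe, took 3.04% to 3.22% of the counts with DMSO and 4.67% to 4.98% with AZD4573. Over all genes tested the median log2 fold change was 0.03 with TMM, -0.71 after scaling to these 13 mRNAs and -0.08 with library size alone. All 10 genes were below DMSO under the mitochondrial scaling. Relative to the median of all genes their changes were nearly the same by construction, because a scaling shifts all genes by a similar amount. The largest shift was for HSPE1, at -0.36 with TMM and -0.35 with the mitochondrial scaling. Of 12 T-cell markers 10 had a mean of at least 1 CPM, with CD3D, CD3E and LCK among them, and CD2 and CD7 were below it. The summed T-cell markers ranged from 1288 to 1336 CPM with DMSO and from 1720 to 1735 CPM with AZD4573. Of 6 myeloid markers FCGR3A had no counts, and their sum was at most 0.583 CPM with DMSO and 1.04 CPM with AZD4573. EPCAM, an epithelial marker, and CD79A, a B-cell marker, were present in both groups, and the summed stromal and epithelial markers ranged from 163 to 177 CPM with DMSO and from 131 to 138 CPM with AZD4573. The B-cell markers summed to 63.5 to 68.7 CPM with DMSO and 90.3 to 98.3 CPM with AZD4573. The part of these shifts in the results below was not tested. In bulk libraries fewer cells of a kind and less RNA per cell cannot be told apart.

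HSF1 binds heat shock elements, inverted repeats of the 5-base unit NGAAN, so the 250 bases upstream of a start site are shown first for 5 chaperone genes with log2 fold changes from -1.63 to 0.10, chosen to show the forms of the element. The sequences are from RefSeq on GRCh38.p14, which covered 9 of the 10 genes in 15 windows, with HSF1 not among them. Adjoining units read as GAANNTTC or TTCNNGAA, and each match to either is in capitals. DNAJB1 and HSPA1B, which fell most, hold pairs of units with no further exact unit adjoining them, 2 in DNAJB1 and 1 in HSPA1B. Each of these pairs adjoins a unit that differs from GAA or TTC at 1 base, so the element may extend beyond the capitals. HSPA8, HSP90AA1 and HSPD1 hold runs of at least 13 bases that match GAANNTTCNNGAA on either strand. In the order given, the windows are chr19:14518398-14518647 on the minus strand, chr6:31827488-31827737 on the plus strand, and chr11:123062137-123062386, chr14:102087045-102087294 and chr2:197499841-197500090 on the minus strand.
DNAJB1: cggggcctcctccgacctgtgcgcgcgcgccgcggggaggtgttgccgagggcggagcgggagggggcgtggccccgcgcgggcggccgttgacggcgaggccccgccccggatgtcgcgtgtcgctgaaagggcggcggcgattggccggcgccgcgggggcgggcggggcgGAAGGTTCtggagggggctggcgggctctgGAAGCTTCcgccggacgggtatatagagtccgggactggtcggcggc
HSPA1B: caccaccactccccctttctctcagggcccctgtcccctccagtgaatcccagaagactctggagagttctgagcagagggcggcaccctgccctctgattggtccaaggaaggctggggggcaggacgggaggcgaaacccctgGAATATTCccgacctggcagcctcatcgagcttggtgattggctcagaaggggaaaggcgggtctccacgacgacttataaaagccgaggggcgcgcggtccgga
HSPA8: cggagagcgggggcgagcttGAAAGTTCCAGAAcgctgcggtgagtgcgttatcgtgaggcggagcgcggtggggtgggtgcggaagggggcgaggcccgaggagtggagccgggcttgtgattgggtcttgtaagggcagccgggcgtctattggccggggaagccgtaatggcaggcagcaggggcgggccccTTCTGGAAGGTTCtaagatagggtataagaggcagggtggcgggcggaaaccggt
HSP90AA1: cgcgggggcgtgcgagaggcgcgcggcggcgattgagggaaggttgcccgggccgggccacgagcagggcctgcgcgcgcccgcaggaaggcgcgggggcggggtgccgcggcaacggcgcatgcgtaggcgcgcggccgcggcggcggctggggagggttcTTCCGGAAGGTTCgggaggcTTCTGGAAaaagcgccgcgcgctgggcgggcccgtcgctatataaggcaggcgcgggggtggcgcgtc
HSPD1: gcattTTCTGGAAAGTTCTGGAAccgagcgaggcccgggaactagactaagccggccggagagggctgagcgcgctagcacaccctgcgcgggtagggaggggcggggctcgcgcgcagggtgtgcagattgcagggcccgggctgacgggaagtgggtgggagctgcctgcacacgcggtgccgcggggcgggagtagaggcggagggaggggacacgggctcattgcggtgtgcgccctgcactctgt
The 13-base element was present in windows of 4 of the 9 genes, namely HSPA8, HSP90AA1, HSPD1 and HSP90AB1. It was in 4 of the 15 windows of the 9 genes, beside 0.441% of 35116 RefSeq windows of the same length. For HSP90AB1 it lay upstream of an alternative start, 842 bases downstream of the canonical one. The 8-base pair of units, which the 13-base element contains, was present for 7 of the 9 genes. It was in 7 of the 15 windows, beside 11.6% of all windows. HSPH1 and HSPE1 had no match in their windows, and the HSPH1 window lay at a start upstream of the canonical one. HSPE1 lies head to head with HSPD1, so the HSPD1 matches are also upstream of the HSPE1 start, beyond the 250 bases searched. Among the genes with the 13-base element, HSPA8 fell by 0.99 on the log2 scale and HSPD1 was at 0.10. The 3 genes with an exact match to the 8-base pair only, DNAJB1, HSPA1B and HSPA1A, had the largest falls of the 10. Units with a mismatch were not counted, so the matches do not measure the length or strength of an element. HSPH1, which fell by 0.64, had neither in its window, but the bases upstream of its canonical start were not searched. A match is a description of the sequence and not evidence of binding.

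HSF1 (ENSG00000185122; chr8:144291591-144314720 on GRCh38, plus strand, 13 exons in its canonical transcript) is the main stress-responsive heat shock factor. Its level was 139, 150.7 and 154 CPM in the 3 DMSO libraries and 119, 113 and 116 CPM in the 3 AZD4573 libraries. Every AZD4573 library lay below every DMSO library. The log2 fold change was -0.24 (SE 0.0441, 95% interval -0.34 to -0.15, adjusted p = 2.2e-04). Of the 17678 genes tested, 38.3% had a lower log2 fold change, so that HSF1 was near the middle of the distribution. The 3 genes nearest to HSF1 in their pattern over the 6 libraries, among 9189 genes with a mean of at least 10 CPM, were RBM41, DHX38 and ANAPC1. Their log2 CPM relative to the DMSO mean differed from that of HSF1 by at most 0.0381, 0.0384 and 0.0385 in any library.

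HSPA1A and HSPA1B encode almost the same stress-inducible HSP70 protein from neighbouring genes of a single exon on chromosome 6. HSPA1B (ENSG00000204388; chr6:31827738-31830254, plus strand) was at 521, 535 and 519 CPM with DMSO and at 192, 176 and 158 CPM with AZD4573. The groups were far apart, and the DMSO libraries were within a few percent of each other. This was a log2 fold change of -1.48 (SE 0.0569, 95% interval -1.60 to -1.36, adjusted p = 1.2e-10).

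HSPA1A (ENSG00000204389; chr6:31815543-31817946, plus strand) was at 32.0, 27.3 and 32.2 CPM with DMSO and at 13.8, 12.3 and 12.2 CPM with AZD4573. No AZD4573 library reached the lowest DMSO library. HSPA1A had a log2 fold change of -1.16 (SE 0.0779, 95% interval -1.33 to -0.99, adjusted p = 1.5e-08). The split of counts between HSPA1A and HSPA1B is uncertain. Their transcripts share 2302 of 2525 aligned bases, and 1565 of the 2250 stretches of read length in HSPA1A occur unchanged in HSPA1B. Their summed counts do not depend on the split and gave a log2 fold change of -1.46 (adjusted p = 1.1e-10). The 250 bases upstream of the genes are also alike, with 235 of 251 aligned bases identical. The HSPA1B exon further shares 920 bases with a long non-coding RNA on the same strand, to which 94 to 1197 counts were assigned per library. The 3 genes nearest in pattern to the sum of HSPA1A and HSPA1B were PRKAB1, EOLA1 and MRM3, with largest log2 differences of 0.0354, 0.0418 and 0.0429.

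HSPA8 (ENSG00000109971; chr11:123057489-123063230, minus strand, 9 exons) encodes HSC70, the constitutive cytosolic HSP70 of most cells. Its level was 2138, 1962 and 1989 CPM with DMSO and 1032, 929 and 901 CPM with AZD4573. HSPA8 is the second most abundant of the 10 transcripts per length with DMSO, and in every AZD4573 library it was far below the lowest DMSO library. HSPA8 had a log2 fold change of -0.99 (SE 0.0548, 95% interval -1.10 to -0.87, adjusted p = 2.3e-09). The gene also contains 3 snoRNA genes and shares 555 of 4849 exon bases with a long non-coding RNA on the opposite strand. The methods name a directional library kit but default settings for the counting, which ignore strand. Under these settings reads from such overlapping pairs cannot be told apart, and the use of strand in the counts was not checked.

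DNAJB1 (ENSG00000132002; chr19:14514769-14560391, minus strand, 3 exons) encodes the stress-inducible J-domain partner of HSP70, also known as HSP40. Its level was 170, 156 and 154 CPM with DMSO and 52.1, 46.7 and 45.4 CPM with AZD4573. The groups were separated by more than for any other of the 10 genes in relation to their level. The log2 fold change was -1.63 (SE 0.0587, 95% interval -1.76 to -1.5, adjusted p = 7.1e-11), and 5.28% of the genes tested had a lower one. DNAJB1 shares 525 of 8188 exon bases with TECR on the opposite strand.

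HSPH1 (ENSG00000120694; chr13:31134973-31162388, minus strand, 18 exons) encodes HSP105, an HSP110 protein that exchanges the nucleotide of HSP70. Its level was 339, 352 and 349 CPM with DMSO and 217, 207 and 195 CPM with AZD4573. The groups did not overlap, and the fall was the smallest of the 5 genes called. HSPH1 had a log2 fold change of -0.64 (SE 0.0420, 95% interval -0.73 to -0.55, adjusted p = 1.1e-08), with an interval that includes a change below 1.5-fold.

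**Figure D1:**
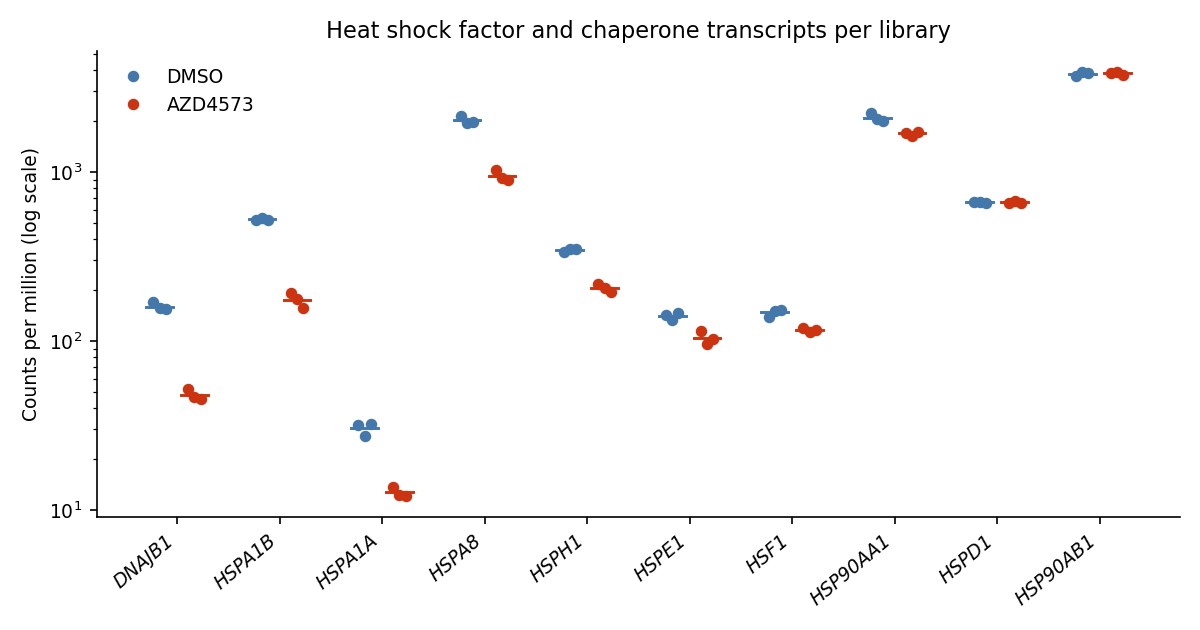
CPM (counts over the library total, log scale) of each gene in every library, with DMSO in blue, AZD4573 in red and the group mean as a bar (n = 3 per group), ordered by fold change. AZD4573 lies below DMSO without overlap for 8 genes, and the libraries overlap for HSPD1 and HSP90AB1.

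Cytosolic HSP90 is encoded by a stress-inducible and a constitutive gene. HSP90AA1 (ENSG00000080824; chr14:102080742-102139699, minus strand, 11 exons) encodes the inducible form and was at 2243, 2061 and 1997 CPM with DMSO and at 1713, 1644 and 1726 CPM with AZD4573. The AZD4573 libraries were all lower, by less than the difference seen for HSPA8. The log2 fold change was -0.21 (SE 0.0521, 95% interval -0.32 to -0.09, adjusted p = 0.00277).

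HSP90AB1 (ENSG00000096384; chr6:44246166-44253888, plus strand, 12 exons) encodes the constitutive form. Its level was 3728, 3887 and 3866 CPM with DMSO and 3852, 3917 and 3748 CPM with AZD4573. The groups overlapped, and the means of 3827 ± 86.4 and 3839 ± 85.1 CPM (SD, n = 3) differed by less than the spread between libraries. After TMM scaling the log2 fold change was 0.11 (SE 0.0411, 95% interval 0.02 to 0.20, adjusted p = 0.0280). With library size alone it was 0.0046 (adjusted p = 0.911), with a replicate block the adjusted p was 0.0716, and under the mitochondrial scaling the log2 fold change was -0.63. It was the highest of the 10 transcripts in both groups.

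HSPD1 and HSPE1 encode mitochondrial HSP60 and HSP10 and lie head to head on chromosome 2 with 135 exon bases in common. HSPD1 (ENSG00000144381; chr2:197486584-197516737, minus strand, 12 exons) was at 665, 667 and 659 CPM with DMSO and at 658, 676 and 654 CPM with AZD4573. The groups overlapped, with means of 664 ± 4.36 and 663 ± 11.6 CPM (SD, n = 3). The log2 fold change after TMM scaling was 0.10 (SE 0.0397, 95% interval 0.02 to 0.19, adjusted p = 0.0313). It was -0.0016 with library size only (adjusted p = 0.969) and -0.64 under the mitochondrial scaling, and a replicate block gave an adjusted p of 0.0632.

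HSPE1 (ENSG00000115541; chr2:197500140-197503449, plus strand, 4 exons) was at 142, 134 and 146 CPM with DMSO and at 114, 96.3 and 102 CPM with AZD4573. In contrast to its partner HSPD1, the groups did not overlap. HSPE1 thus had a log2 fold change of -0.33 (SE 0.0569, 95% interval -0.45 to -0.21, adjusted p = 1.4e-04). HSPE1 shares 192 of 1823 exon bases with the readthrough gene HSPE1-MOB4, and adding its 70 to 126 counts per library gave a log2 fold change of -0.33.

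**Figure D2:**
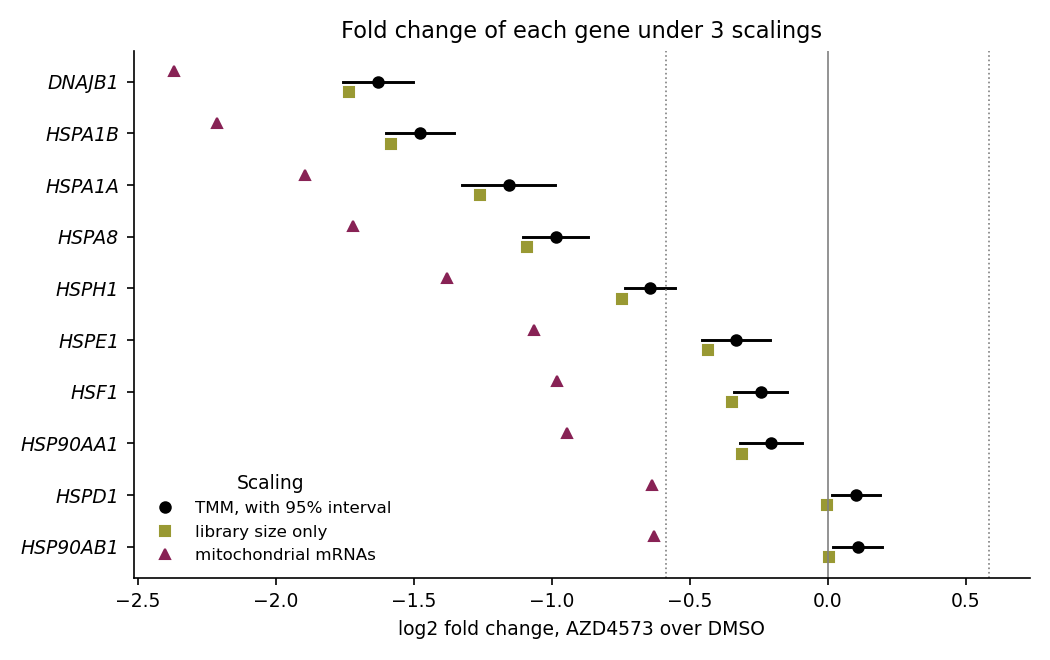
Log2 fold change of AZD4573 over DMSO for each gene with TMM scaling (circles, bars are 95% intervals), library size only (squares) and scaling to the mitochondrially encoded mRNAs (triangles), with dotted lines at a fold change of 1.5. The order of the genes runs from DNAJB1 at -1.63 to HSP90AB1 at 0.11 with TMM scaling, and the mitochondrial scaling moves all of them to the left by a similar amount.

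Pseudogenes of these families, of which HSPE1 has the most with 26, held few of the counts. Their sum was at most 0.386% of the parent gene in any library, for HSPD1. The count of the parent may still hold reads that fit a copy.

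Ratios between genes within a library do not depend on how libraries are scaled to each other. For 6 pairs chosen by function, each ratio separated the groups without overlap, and the exact two-sided permutation test over 3 against 3 libraries gave p = 0.1 for each (0.1 after adjustment over the 6 pairs), the smallest value this design allows. DNAJB1 relative to HSPA8 was 0.0794, 0.0796 and 0.0774 with DMSO and 0.0505, 0.0503 and 0.0504 with AZD4573. The J-domain partner was lower relative to the constitutive HSP70 in every AZD4573 library, with a log2 difference of -0.64.

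The inducible HSP70 genes relative to HSPA8 were at 0.259, 0.287 and 0.277 with DMSO and at 0.200, 0.203 and 0.188 with AZD4573, a log2 difference of -0.48. HSPH1 relative to HSPA8 went the other way, from 0.158, 0.179 and 0.175 to 0.211, 0.223 and 0.217, a log2 difference of 0.34. Counts of HSP105 per count of HSC70 were thus higher in every AZD4573 library, although both genes had fallen.

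HSP90AA1 relative to HSP90AB1 was 0.602, 0.530 and 0.517 with DMSO and 0.445, 0.420 and 0.461 with AZD4573. The stress-inducible HSP90 was lower relative to the constitutive one in all 3 libraries, with a log2 difference of -0.31. HSPD1 relative to HSPE1 was 4.69, 4.97 and 4.5 with DMSO and 5.76, 7.02 and 6.40 with AZD4573, a log2 difference of 0.43. HSPA1A relative to HSPA1B had a mean of 0.0582 ± 0.00615 with DMSO and 0.0729 ± 0.00388 with AZD4573 (SD, n = 3), a ratio that rests on the uncertain split between these genes.

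**Figure D3:**
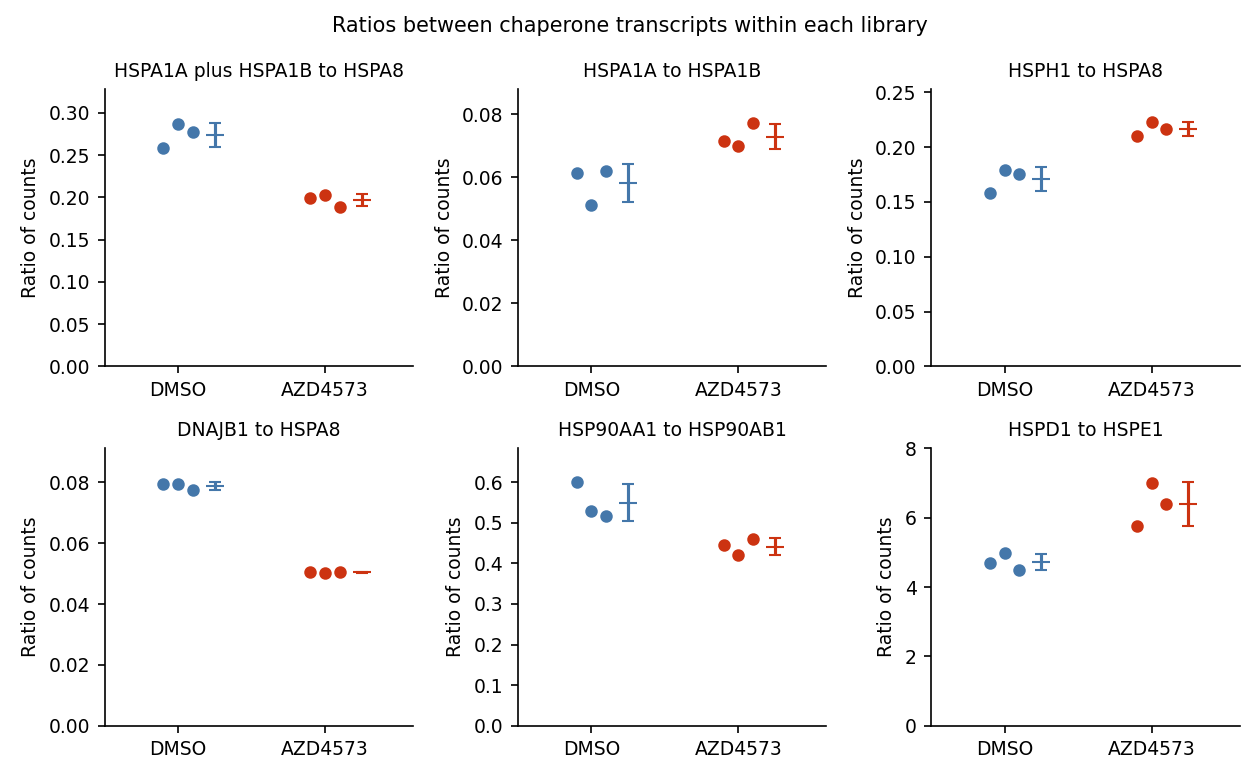
Ratio of counts between pairs of genes in each library (points), with the group mean and SD (bars, n = 3 per group) for DMSO in blue and AZD4573 in red. Each of the 6 pairs shows no overlap between the groups, with the narrowest spread for DNAJB1 to HSPA8 with AZD4573 (0.0503 to 0.0505).

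Levels were compared between genes as CPM per kilobase of the canonical transcript. With DMSO the order was HSP90AB1 at 1498 ± 33.8 CPM per kilobase (SD, n = 3), HSPA8 at 896 ± 42.0, HSP90AA1 at 651 ± 39.5, HSPD1 at 296 ± 1.94, HSPE1 at 253 ± 11.4 and HSPA1B at 209 ± 3.44. DNAJB1 at 71.4 ± 3.81, HSF1 at 69.3 ± 3.61 and HSPH1 at 66.1 ± 1.32 CPM per kilobase followed, and neighbours among these 3 overlapped between libraries. HSPA1A was last at 12.7 ± 1.15 CPM per kilobase. With AZD4573, HSP90AA1 at 525 ± 13.7 CPM per kilobase stood above HSPA8 at 421 ± 30.3, and DNAJB1 at 21.5 ± 1.58 stood below HSF1 at 54.4 ± 1.33 and HSPH1 at 39.4 ± 2.08. No neighbours in the AZD4573 order overlapped.

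Together the 10 genes took 10118, 9932 and 9864 CPM with DMSO and 7963, 7817 and 7659 CPM with AZD4573. The sum was thus 0.997% of all counts with DMSO and 0.781% with AZD4573, with no overlap between libraries. Within the sum, HSP90AB1 went from 38.4% ± 1.34 to 49.1% ± 0.886 (SD, n = 3) and HSPA8 from 20.3% ± 0.710 to 12.2% ± 0.655. HSPA1B went from 5.26% ± 0.116 to 2.24% ± 0.178, while HSP90AA1 was at 21.1% ± 0.996 and 21.7% ± 0.772.

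The other genes of the chaperone network were described through 10 lists written from general knowledge, with 107 of 120 genes tested. At an adjusted p under 0.05, 54 of these passed as lower and 30 as higher, and 37 and 7 of them also changed by at least 1.5-fold. Over all genes tested 37.4% passed as lower and 37.3% as higher, and 23.7% and 22.7% also changed by at least 1.5-fold, and the counts of each list below stand beside these same shares. The median log2 fold change was -0.19, beside 0.03 over all genes tested. Directions are given under TMM scaling, and under the mitochondrial scaling the log2 fold change of each gene named by rule that rose was below 0 except for HSF4 (0.22) and DNAJC4 (0.34). The list of other HSP70 and HSP110 proteins had the lowest median, -0.84, and 7 of its 8 tested genes were lower. This median also rests on genes with a mean below 10 CPM in both groups, HSPA6 among them. HSPA4L, an HSP110 protein, fell from a mean of 17.1 to 7.29 CPM (log2 fold change -1.13), HSPA14, which binds the ribosome, from 62.2 to 37.4 CPM (-0.63), HSPA4 from 153 to 109 CPM (-0.39) and HSPA13 from 67.3 to 47.9 CPM (-0.39). HSPA6, a strictly stress-inducible HSP70 named here after its values were seen, had 23, 24 and 34 counts with DMSO and 2, 0 and 3 counts with AZD4573.

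Among J-domain proteins of classes A and B, 6 of 10 were lower and 3 higher, with a median of -0.43. DNAJB2 fell from a mean of 10.1 to 3.25 CPM (log2 fold change -1.53) and DNAJA2 from 85.2 to 35.5 CPM (-1.16), whereas DNAJB6, which suppresses aggregation, went from 169 to 179 CPM (0.19, adjusted p = 0.00116) and DNAJB14 from 46.6 to 45.1 CPM (0.06, adjusted p = 0.296). The genes called higher were DNAJA4, with 2, 7 and 8 counts with DMSO and 109, 128 and 105 with AZD4573, and DNAJB13, with 1, 4 and 7 counts and 22, 36 and 34 counts. Both were named after their values were seen. DNAJB13 shares 798 of 2767 exon bases with a long non-coding RNA on the opposite strand. DNAJA4 shares 369 of 6591 with such an RNA and 71 with another, DNAJA4-DT. The part of these RNAs in the counts was not tested. Among class C proteins, 14 of 24 were lower and 4 higher, with a median of -0.35. DNAJC14 fell by 1.37 on the log2 scale and DNAJC30 by 1.23, DNAJC5, a synaptic vesicle chaperone, rose by 0.55 and DNAJC4 by 1.08. DNAJC14 shares 973 of 4190 exon bases with a gene on the same strand and 920 with ORMDL2 on the opposite one, and DNAJC4 shares 297 of 2807 with NUDT22.

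Of 9 BAG proteins and other HSP70 co-chaperones, 4 were lower and 5 higher, with a median of 0.14. BAG4 fell from a mean of 28.1 to 9.14 CPM (log2 fold change -1.52) and BAG2, an exchange factor that inhibits the ubiquitin ligase CHIP, from 89.3 to 36.2 CPM (-1.20). ST13, which stabilises ADP-bound HSP70, rose from 314 to 392 CPM (0.42) and BAG5 from 102 to 134 CPM (0.50). Of the exon bases of BAG2, 2842 of 6651 are shared with RAB23 on the opposite strand.

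Of 16 HSP90 co-chaperones, 8 were lower and 5 higher, with a median of -0.13. TTC4 fell from 67.1 to 21.3 CPM (log2 fold change -1.56) and CHORDC1 from 64.9 to 25.4 CPM (-1.25). CDC37, which brings kinases to HSP90, rose from 528 to 692 CPM (0.49). TTC4 shares 1848 of 3488 exon bases with the readthrough gene MROH7-TTC4.

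Of the heat shock factors and their regulators, 1 of 5 was lower and 2 were higher, with a median of -0.05. HSF2, which can form heterotrimers with HSF1, fell from a mean of 54.9 to 31.0 CPM (log2 fold change -0.72), while HSF4 rose from 23.8 to 42.9 CPM (0.96). HSBP1, which binds the trimerisation domain of HSF1, was at 49.6 and 44.5 CPM (-0.05, adjusted p = 0.365). The other higher gene, HSBP1L1, had 38 to 55 counts with DMSO and 76 to 111 with AZD4573, and was named after its values were seen. HSF4 shares 1059 of 3913 exon bases with another gene on the same strand.

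The TRiC and prefoldin subunits, which act in the folding of actin and tubulin, had a median of -0.00, with 5 of 15 lower and 3 higher. CCT2 fell from 309 to 148 CPM (log2 fold change -0.96) and PFDN1 from 34.0 to 18.5 CPM (-0.78), while CCT8 rose from 305 to 331 CPM (0.23) and PFDN5, which shares 1048 of 4078 exon bases with a long non-coding RNA, from 105 to 132 CPM (0.44). Subunits of a complex thus differed in direction under TMM scaling. Among other mitochondrial chaperones and proteases, 6 of 12 were lower and 5 higher, with a median of -0.16. CLPX fell by 0.96 on the log2 scale and DNAJA3 by 0.88, while LONP1, the matrix protease, rose by 0.51 and GRPEL2 by 0.59.

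The textbook heat shock response list had 9 of 16 genes lower and 3 higher, with a median of -0.31, and it shares genes with other lists. UBB, which encodes ubiquitin, rose by 0.27. Of 9 small heat shock proteins 2 could be tested, and HSPB1, which encodes HSP27, rose from 13.3 to 16.3 CPM (log2 fold change 0.40). The other was HSPB6, named after its values were seen, with 83 to 125 counts with DMSO and 169 to 177 with AZD4573. HSPB6 shares 660 of 1724 exon bases with a long non-coding RNA on the opposite strand.

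**Figure D4:**
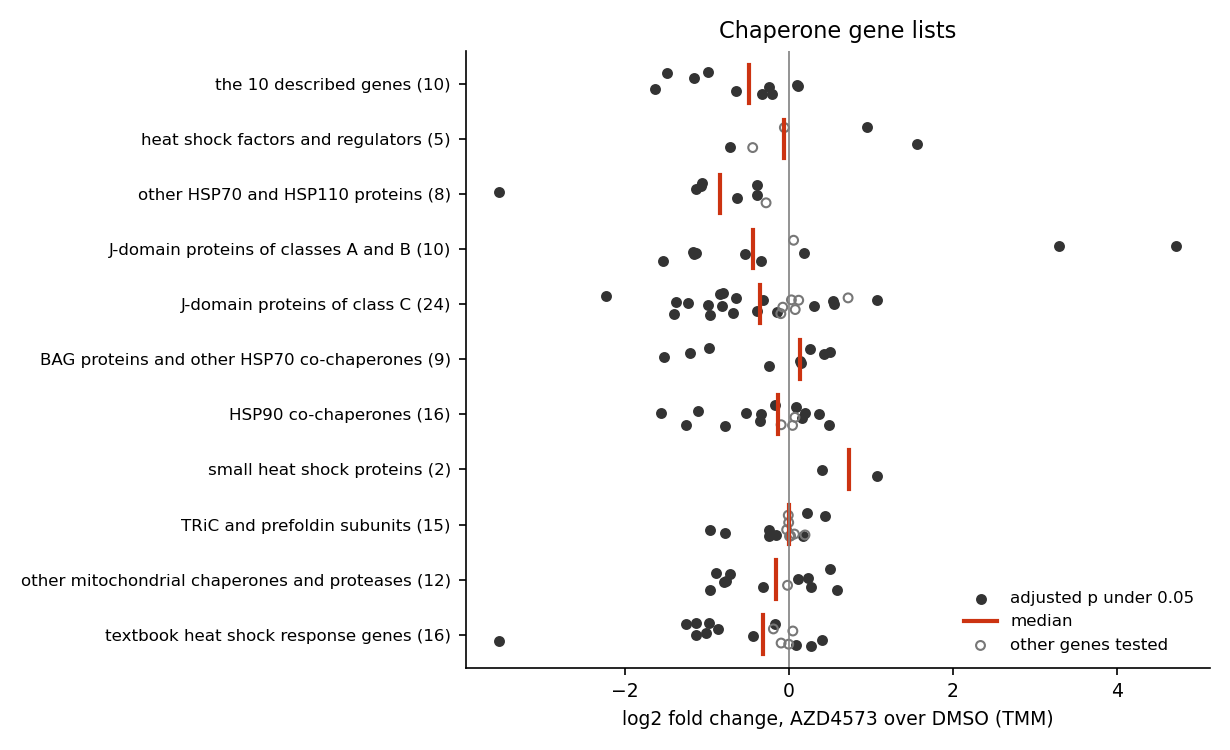
Log2 fold change of AZD4573 over DMSO with TMM scaling for the 10 genes and each chaperone list (number of genes tested in parentheses), where filled circles passed at an adjusted p under 0.05, open circles did not, and red bars are medians. The median is lowest for other HSP70 and HSP110 proteins (-0.84) and highest for the 2 small heat shock proteins (0.74), and points above 3 are DNAJA4 and DNAJB13.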

How the data were processed

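Bulk RNA-seq was analysed in 3 DMSO and 3 AZD4573 libraries of H9 cells, mapped to groups by their labels. According to the supplemental methods, the authors checked reads with FastQC 0.11.8, trimmed them with Cutadapt 2.3, aligned them to GRCh38 with STAR 2.7.8a and estimated counts with RSEM 1.3.3 at default settings, which ignore strand. The deposited values are expected counts, all of them whole and none normalized. Poly(A) selection is given in the labels and rRNA depletion in the methods. The 5 entries that are not Ensembl genes had 0 counts and were left out.

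Genes with low counts were removed with edgeR's filter (minimum count 10). Counts were scaled by TMM and compared with edgeR 4.0.16 (R 4.3.3) through its quasi-likelihood test. Benjamini-Hochberg adjustment covered the 17678 genes that were tested. A gene passed at an adjusted p under 0.05 and was called if it also changed by at least 1.5-fold. Errors of CPM are SD over libraries. Total counts of at least 52101868 per library limit counting error, which does not cover PCR copies of a molecule.

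The 10 genes were all named, and from each list the 2 lowest and 2 highest log2 fold changes among tested genes with at least 10 CPM in the higher group were named (except 1, which is left out here), with the 3 genes nearest in pattern to HSF1 and to HSPA1A plus HSPA1B. The members, lists and tests were chosen with earlier results of these data known. Within groups, no pair of libraries was a copy (chi-square over its degrees of freedom of 5.51 to 20.5). Same-numbered libraries did not deviate together, and the replicate number is not a block in the design.

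Alternatives were RLE factors, library size only, scaling to the 13 mitochondrially encoded mRNAs, no filter, a minimum of 10 counts throughout, single libraries left out, a replicate block, DESeq2 1.42.0, a 2-fold limit, and near-identical or readthrough genes summed. The procedure was tested on simulated data. Gene positions and exons came from GENCODE release 44, and upstream sequences from RefSeq.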

Additional observations from a re-analysis of the deposited data

How the results depend on the processing

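DNAJB1, HSPA1A, HSPA1B, HSPA8, HSPH1, HSPE1, HSF1 and HSP90AA1 kept their direction and an adjusted p under 0.05 in each alternative run. HSP90AB1 and HSPD1 did not. Their log2 fold changes were 0.0046 (adjusted p = 0.911) and -0.0016 (0.969) with library size only, -0.63 and -0.64 with the mitochondrial scaling, and 0.067 (0.313) and 0.061 (0.365) without a filter. They ranged from 0.086 to 0.12 and from 0.080 to 0.11 with a library left out. HSP90AB1 lost significance without DMSO replicate 2 or 3 or AZD4573 replicate 2, and HSPD1 without these or AZD4573 replicate 3. The number of the 10 genes higher at an adjusted p under 0.05 was 2, but 0 with library size only, mitochondrial scaling, no filter or a replicate block, and 0 to 2 with a library left out. The number called lower was 5, but 10 with mitochondrial scaling and 3 at a fold change of at least 2. Over all genes, 9433 were called lower and 1769 higher with mitochondrial scaling, and 2450 and 2643 at a fold change of at least 2, in place of 4191 and 4012. The summed level of the 10 genes was -0.35 on the log2 scale, -0.25 with TMM sizes and -0.99 with mitochondrial scaling. The mitochondrial scaling reversed BAG5 (-0.24), CCT8 (-0.51), CDC37 (-0.24), DNAJB14 (-0.68), DNAJB6 (-0.55), DNAJC5 (-0.19), GRPEL2 (-0.15), HSPB1 (-0.34), LONP1 (-0.23), PFDN5 (-0.30), ST13 (-0.32) and UBB (-0.47), and library size only reversed DNAJB14 (-0.046). Genes nearest in pattern and genes named after their values were seen were left out of the next count. Of the 32 genes named by rule from the lists, 29 kept direction and side of the threshold in every alternative but the mitochondrial scaling. The exceptions, all with library size only, were DNAJB14, DNAJB6 and HSBP1, of which DNAJB6 lost significance and HSBP1 gained it. The libraries share replicate numbers, but same-numbered libraries were not paired by the labels, and their deviations correlated at -0.0208, 0.0417 and 0.0316. With the replicate block, HSP90AB1 was at 0.11 (adjusted p = 0.0716) and HSPD1 at 0.10 (0.0632), and 4162 genes were called lower and 3926 higher. The 6 ratios kept their direction in each alternative, and the exact paired permutation test gave p = 0.25 for each, the smallest it allows. Apart from what the settings change by construction, the cause of these differences was not tested. Without a measured amount of RNA per cell, the scaling between groups cannot be settled from these libraries, and 3 libraries per group limit small changes such as those of HSP90AB1 and HSPD1.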
